A study of Homo sapiens with 2 samples.

Results

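ABC transporters are membrane pumps that use ATP to move lipids, bile salts, drugs, metal complexes and peptides, and their genes fall into subfamilies named A to G. The genes described here are those whose symbol is ABC, a subfamily letter and a number, read from the probes that the array's annotation assigns to a single gene. This rule found 43 of the 18417 genes measured, 12 in subfamily A, 8 in B, 11 in C, 3 in D, 1 in E, 3 in F and 5 in G. RefSeq lists 42 of them as protein-coding and ABCC13 as a transcribed pseudogene.

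The cells were HepG2, a human hepatoma line with many functions of hepatocytes. One group was exposed to 100 mg/L of amorphous silica nanoparticles (SiO2-NP) in MEM medium for 24 h, and the other was the control in the same medium. Each group held 1 Affymetrix array, so no value has a replicate error, no test could be run, and every difference describes these 2 arrays. In RNA of a whole culture, fewer cells of a kind and less RNA per cell cannot be told apart. The labels used here give neither the particles' size nor the number of cultures behind an array.

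In hepatocytes the family serves several tasks at once. ABCA1 loads cholesterol and phospholipid onto apolipoprotein A-I at the sinusoidal face, while ABCB4, ABCB11, ABCC2, ABCG2 and the ABCG5-ABCG8 pair export phosphatidylcholine, bile salts, conjugates and sterols across the canalicular face into bile. ABCB1, ABCG2 and members of subfamily C are known from drug resistance, and the proteins of subfamilies E and F lack a membrane part and work at the ribosome.

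The ABCG5-ABCG8 pair is shown first because its members share 1 stretch of DNA and differed in opposite directions on the arrays. Both differed by less than 1.2-fold, and the pair was picked with these values known. Sequences are from RefSeq on GRCh38.p14, whose promoter table matched 34 of the 43 members. ABCG5 lies on the minus strand and ABCG8 on the plus strand, and their annotated starts are 132 bases apart. The 131 bases between them, chr2:43838840-43838970, are printed on the plus strand, with the letters GATAAG, found here on the minus strand, in capitals.
ABCG5-ABCG8: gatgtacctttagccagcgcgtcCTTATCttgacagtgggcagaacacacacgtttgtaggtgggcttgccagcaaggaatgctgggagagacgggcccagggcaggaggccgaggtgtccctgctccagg
ABCA1, the sterol exporter set beside the sterol regulators in the results, and ABCB10, which had the largest difference among the members above the level filter, are shown by the 250 bases before their starts. They are chr9:104928156-104928405 and chr1:229558708-229558957, both on the minus strand, with the motifs that were found in capitals.
ABCA1: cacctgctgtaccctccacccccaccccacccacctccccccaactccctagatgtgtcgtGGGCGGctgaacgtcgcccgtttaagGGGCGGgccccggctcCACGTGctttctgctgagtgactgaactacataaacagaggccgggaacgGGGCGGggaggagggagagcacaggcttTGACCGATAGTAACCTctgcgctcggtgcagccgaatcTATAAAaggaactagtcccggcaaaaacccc
ABCB10: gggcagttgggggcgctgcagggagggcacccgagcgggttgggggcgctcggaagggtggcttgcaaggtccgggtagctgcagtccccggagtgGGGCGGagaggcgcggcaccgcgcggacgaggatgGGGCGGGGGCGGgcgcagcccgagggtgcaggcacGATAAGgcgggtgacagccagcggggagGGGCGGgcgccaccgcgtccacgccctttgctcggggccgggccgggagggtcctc
The motifs searched on both strands were the E-box CACGTG, a direct repeat written as TGACC followed by ACCT after 7 bases (half-sites of nuclear receptors), the antioxidant element TGACNNNGC, GATAAG of the GATA factors, the TATA box TATAAA and the GC box GGGCGG, and none of those found in the printed stretches overlapped another kind. In ABCA1 the first base of CACGTG lay 147 bases before the start, that of the repeat 69 bases, that of TATAAA 31 bases, and the 3 copies of GGGCGG began 189, 163 and 97 bases before it. In ABCB10 GATAAG began 84 bases before the start, and the 4 copies of GGGCGG began at 154, 119, 113 and 56 bases. Of all 35116 annotated windows of 250 bases, 6.34% held CACGTG, 0.211% the repeat, 10.9% TGACNNNGC, 5.65% GATAAG, 10.7% TATAAA and 42.6% GGGCGG. Of the 51 windows of the members, 17.6% held CACGTG, 1.96% the repeat, 17.6% TGACNNNGC, 13.7% GATAAG, 11.8% TATAAA and 49.0% GGGCGG. The only member window with the repeat was that of ABCA1, whose letters the string fits. The share of members with the repeat thus follows from the choice of string, and no conclusion is drawn from it. Several members have more than 1 window. The GATAAG between ABCG5 and ABCG8 lies in the windows of both genes and is counted in each. The matches of all motifs describe letters, not bound sites.

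The values are log2 intensities, and a difference is SiO2-NP minus control on the log2 scale. The arrays had medians of 6.69 with SiO2-NP and 6.65 in the control over all 33297 probes. A gene was taken as above the level filter when its mean over both arrays reached 7.26, the median of all genes, which 9209 genes did. This is not a detection call, and an intensity reflects the probes as well as the transcript, so levels are not ranked between genes. Above the filter the median difference of all genes was -0.03, with the central 95% between -0.37 and 0.28. Below it the median was 0.07, with the central 95% between -0.36 and 0.44. Of the hepatocyte markers 10 of 10 measured were above the filter, between 11.0 and 13.4 with SiO2-NP and between 11.0 and 13.5 in the control, while 2 of 7 fibroblast markers (COL1A1 and ACTA2), 2 of 6 leukocyte markers (LYZ and CD68), 0 of 6 endothelial markers and 3 of 4 bile duct markers (KRT19, SOX9 and EPCAM) reached it.

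As a family the ABC transporters differed little between the exposed and the control cells. Of the 43 members, 20 were above the level filter and 23 below it. None of the 43 differed by 1.5-fold, a threshold that 0.7% of all measured genes and 0.391% of the genes above the filter passed in either direction. At 1.2-fold (0.26 on the log2 scale) 0 of the 20 members above the filter were higher and 0 lower, against 2.99% and 7.53% of the genes above it. Over all genes above the filter 275 passed 1.2-fold upward and 693 downward as deposited, and 392 and 474 did after quantile normalization, while the members stayed at 0 under all 3 other scalings. Without the filter 1 of 43 was higher (ABCA4) and 1 lower (ABCG2), against 8.26% and 6.47% of all genes. The differences of the 20 members ran from -0.25 to 0.13, with a median of -0.02 and an SD across genes of 0.12, which is a spread over genes and not an error. The same SD over all genes above the filter was 0.16.

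**Figure D1:**
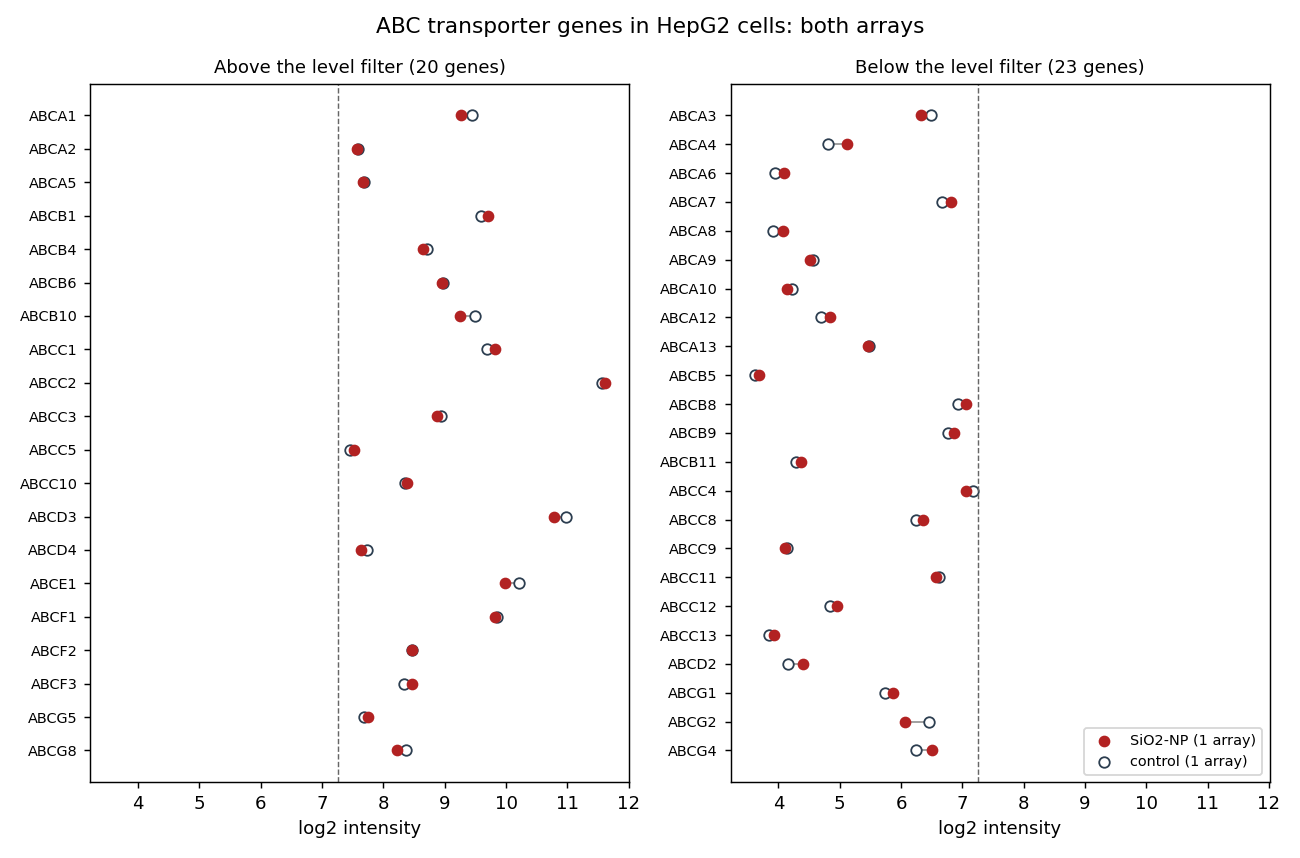
Log2 intensity of each ABC gene on the SiO2-NP array (filled) and the control array (open), 1 array each, for the 20 genes above the level filter of 7.26 (dashed line) and the 23 below it. The 2 points of most genes nearly coincide, and the widest gap is that of ABCG2.

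Of the 20 members above the filter, 7 were above the control and 13 below it as deposited, against 3703 above and 5503 below among all 9209 genes. This split followed the scaling. It was 12 above and 8 below after subtracting the median difference, 10 and 10 after centring on a running median of genes of like level, and 11 and 9 after quantile normalization. ABCA2, ABCA5, ABCB6, ABCF1 and ABCF2, whose differences lay between -0.03 and -0.01, were the members above the filter that took the opposite sign under at least 1 of these scalings. Of the 23 dim members 15 were above the control, with a median of 0.09, in the same direction as the 0.07 of all dim genes.

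**Figure D2:**
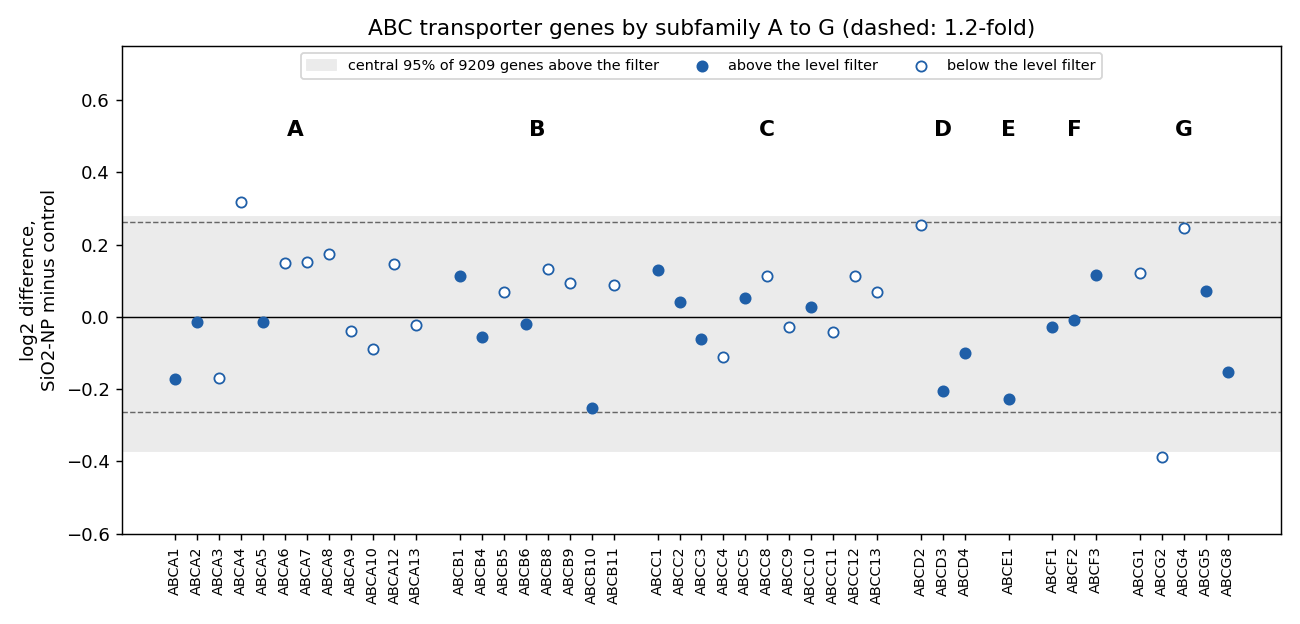
Log2 difference, SiO2-NP minus control, of the 43 ABC genes by subfamily A to G, with genes above the level filter filled and dimmer genes open. The grey band is the central 95% of all genes above the filter and the dashed lines mark 1.2-fold, which ABCA4 and ABCG2, both dim, passed in the values as deposited.

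The exporters of cholesterol and other sterols held 5 genes, all measured, of which 3 were above the filter. ABCA1 had a log2 intensity of 9.27 with SiO2-NP and 9.44 in the control, a difference of -0.17 (1.13-fold lower), at percentile 17.7 of the differences of all genes above the filter. ABCG8 stood at 8.21 with SiO2-NP and 8.37 in the control, a difference of -0.15 at percentile 20.8. Its partner is ABCG5, which it needs to leave the endoplasmic reticulum and to move sterols into bile. ABCG5 had 7.75 with SiO2-NP and 7.68 in the control, a difference of 0.07 at percentile 77.5. The genes of this pair, transcribed away from the stretch printed above, thus lay on opposite sides of the control, also under the 3 other scalings, and both by less than 1.2-fold. ABCG1, which passes cholesterol to HDL particles, was dim at 5.87 with SiO2-NP and 5.75 in the control. ABCG4, a relative known mainly from the brain, was dim as well, at 6.50 with SiO2-NP and 6.25 in the control, and its difference of 0.25 fell just short of 1.2-fold as deposited, with 0.17 to 0.28 over the 3 other scalings, past 1.2-fold after centring on the median.

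Of the genes that set sterol supply, both SREBF genes lay above the control by more than 1.2-fold, also under the 3 other scalings. SREBF2, the transcription factor of cholesterol synthesis, had 9.57 with SiO2-NP and 9.08 in the control, which was 1.41-fold higher. SREBF1, which drives fatty acid synthesis and is itself a target of the sterol sensor LXR, had 8.35 with SiO2-NP and 8.07 in the control, 1.22-fold higher. These were 2 of the 5 genes above the filter in a list of sterol regulators and LXR targets, in which 2 passed 1.2-fold upward and 0 downward, against 2.99% and 7.53% of all genes above the filter. The others were nearer to the control, and LPCAT3, another LXR target, differed by 0.10, SCAP by 0.04 and PLTP by -0.02. NR1H3, which encodes an LXR, was just under the filter with 7.18 with SiO2-NP and 7.24 in the control. Of the genes for HDL proteins and efflux partners 0 of 6 above the filter passed 1.2-fold. APOA1, the acceptor of ABCA1, had 11.24 with SiO2-NP and 11.14 in the control, a difference of 0.10. SCARB1, the HDL receptor, differed by 0.05 and APOC3 by -0.04.

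MicroRNAs hosted by the SREBF genes are known to target ABCA1 transcripts, and their mature forms are shown because ABCA1 and SREBF2 are set side by side here. The seed, bases 2 to 8, is in capitals and is the same in both.
hsa-miR-33a-5p: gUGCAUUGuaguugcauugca
hsa-miR-33b-5p: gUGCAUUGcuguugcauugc
The probe of MIR33A, the gene within SREBF2, was dim, at 3.98 with SiO2-NP and 3.94 in the control, a difference of 0.04. It was looked up after the values of ABCA1 and SREBF2 were known, it does not read the mature RNA, and any part of the microRNA in the ABCA1 value was not tested. MIR33B was not analysed here.

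The other members of subfamily A move lipids in particular tissues, and only ABCA2 and ABCA5 of these 11 genes were above the filter. ABCA2, an endosomal and lysosomal protein of lipid handling, had 7.57 with SiO2-NP and 7.59 in the control. ABCA5, also lysosomal, had 7.66 with SiO2-NP and 7.68 in the control. Both thus differed by -0.01 and -0.02, near the -0.03 of all genes. ABCA4, the retinoid-lipid transporter of photoreceptors, was dim, with 5.13 with SiO2-NP and 4.81 in the control. Its difference of 0.32 (1.25-fold higher) lay at percentile 91.7 of the genes below the filter and ran from 0.25 to 0.35 over the 3 other scalings, short of 1.2-fold under the running median. ABCA3, which fills the surfactant bodies of the lung, had 6.32 with SiO2-NP and 6.49 in the control. ABCA7, a phospholipid transporter, had 6.82 with SiO2-NP and 6.67 in the control. ABCA6, ABCA8, ABCA9, ABCA10, ABCA12 and ABCA13 ranged from -0.09 to 0.17. Of the chain of genes that lie next to each other in RefSeq, ABCA8, ABCA9, ABCA6, ABCA10 and ABCA5, the last alone was above the filter, and their differences of 0.17, -0.04, 0.15, -0.09 and -0.02 had no common sign.

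The canalicular exporters of bile above the filter lay within 1.2-fold of the control. Of the 7 genes, 5 were above the filter, with a median of 0.04, and 0 of these passed 1.2-fold. Of all genes above the filter 2.99% passed it upward and 7.53% downward, so 0 of 5 is near that share. ABCC2, which exports bilirubin glucuronide and other conjugates, had 11.61 with SiO2-NP and 11.57 in the control, a difference of 0.04. ABCB4, which moves phosphatidylcholine into bile, had 8.65 with SiO2-NP and 8.70 in the control, a difference of -0.06. ABCB11, the bile salt export pump, was dim at 4.37 with SiO2-NP and 4.28 in the control. ABCG2, which exports urate, porphyrins and drugs, had 6.06 with SiO2-NP and 6.45 in the control, also below the filter. Its difference of -0.39 (1.31-fold lower) was the largest in size of the 43 members, lay at percentile 2.15 of the genes below the filter, and ran from -0.36 to -0.45 over the 3 other scalings. With 1 array per group and a dim probe, its spread between cultures is unknown.

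Some genes above the filter that work beside these pumps in bile formation lay past 1.2-fold below the control. There were 3 as deposited and 2, CYP7A1 and SLC51B, under each of the 3 other scalings. Of 12 measured bile partners 5 were above the filter, and 0 passed 1.2-fold upward and 3 downward, against 2.99% and 7.53% of all genes above the filter. Of the 7 dim partners 3 were above the control and 4 below, and 1 passed 1.2-fold, downward. This was SLCO1B3, with 5.35 with SiO2-NP and 5.81 in the control, a difference of -0.46. CYP7A1, which starts bile acid synthesis, had 7.68 with SiO2-NP and 8.06 in the control, a difference of -0.39. SLC51B, a subunit of the basolateral bile acid exporter, had 8.58 with SiO2-NP and 8.92 in the control, a difference of -0.34. Its partner subunit SLC51A did not follow it, with 7.41 in both arrays. ATP8B1, the flippase that keeps the canalicular membrane stable against bile salts, had 7.76 with SiO2-NP and 8.04 in the control, a difference of -0.27, which was -0.24 under each of the 3 other scalings, short of 1.2-fold. Of 12 listed nuclear receptors that govern these genes 8 were among the genes measured here, and NR1H4 (FXR), NR1I2, NR1H2 and HNF4A were not. Of the 5 above the filter 0 passed 1.2-fold. NR0B2, the repressor induced by bile acids through FXR, differed by 0.18, NR5A2 by 0.17 and ESRRA by -0.08. The 3 dim receptors NR1I3, VDR and NR1H3 differed by 0.18, 0.11 and -0.06. Of the canalicular scaffold and trafficking genes 0 of 5 passed, and RDX, the ezrin relative that holds ABCC2 at the membrane in mouse liver, differed by -0.16, RAB11A by -0.15 and RAB11FIP2 by -0.11.

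Drug and conjugate pumps made up 10 measured genes, 6 of them above the filter. Of these 6, 5 were above the control and 1 below as deposited and under the 3 other scalings, with a median of 0.05 as deposited. At 1.2-fold 0 of the 6 passed, near the share of all genes above the filter, 2.99% upward and 7.53% downward. Of all 9209 genes above the filter 3703 were above the control and 5503 below as deposited. After centring on the median these were 4604 and 4604. The 4 dim pumps went the other way, with 1 above the control and 3 below as deposited. ABCC1, which exports glutathione conjugates and leukotrienes, had 9.81 with SiO2-NP and 9.68 in the control, a difference of 0.13 (1.09-fold higher) at percentile 87.8. ABCB1, the P-glycoprotein of multidrug resistance, had 9.70 with SiO2-NP and 9.59 in the control, a difference of 0.11 at percentile 85.6. These were the largest positive differences of the list, and both are small beside the central 95% of genes, which reached 0.28. ABCC5, an exporter of cyclic nucleotides, had 7.51 with SiO2-NP and 7.46 in the control. ABCC10 had 8.38 with SiO2-NP and 8.35 in the control. ABCC3, the basolateral exporter of glucuronides and bile acids, was the member below the control, at 8.88 with SiO2-NP and 8.94 in the control. ABCC4, a basolateral pump of bile acids and nucleotides, was just under the filter with 7.06 with SiO2-NP and 7.17 in the control. ABCC11 and ABCC12, which are neighbours in RefSeq, were dim and differed by -0.04 and 0.11. ABCB1 and ABCB4 are neighbours too and similar in sequence, and whether their probes read each other's transcripts was not tested.

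Several of these pumps are known to be raised through NRF2 and the xenobiotic receptors. In the list of NRF2 and drug response genes 0 of 11 above the filter passed 1.2-fold upward and 1 downward, against 2.99% and 7.53% of all genes above the filter. UGT2B7, a glucuronosyltransferase, was the gene that passed downward, with 7.71 with SiO2-NP and 7.98 in the control. Its difference of -0.27 ran from -0.24 to -0.25 over the 3 other scalings, short of 1.2-fold under each. NQO1, a classical NRF2 target, had 12.44 with SiO2-NP and 12.46 in the control. KEAP1, the NRF2 inhibitor, differed by -0.19 and GCLC, of glutathione synthesis, by -0.16. The 2 dim genes of the list lay on opposite sides. CYP2B6 had 4.83 with SiO2-NP and 4.32 in the control, 1.42-fold higher, and CYP3A4 differed by -0.06.

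**Figure D3:**
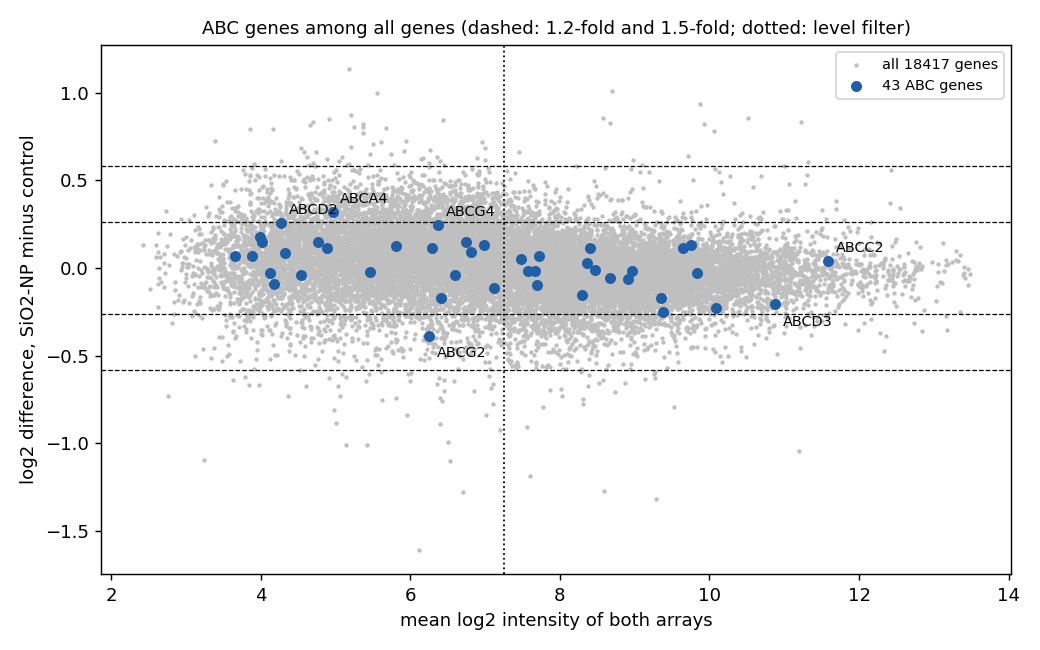
Log2 difference, SiO2-NP minus control, against mean log2 intensity for all 18417 genes (grey) and the 43 ABC genes (blue), with dashed lines at 1.2-fold and 1.5-fold and a dotted line at the level filter. The ABC genes lie inside the cloud of all genes, and ABCG2 and ABCA4 lie past 1.2-fold among the dimmer genes.

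ABC proteins of mitochondria, peroxisomes and lysosomes included ABCB10 and ABCD3, both below the control by less than 1.2-fold. ABCB10, a transporter of the inner mitochondrial membrane needed for haem synthesis, had 9.25 with SiO2-NP and 9.50 in the control. Its difference of -0.25 (1.19-fold lower) was the largest in size of the 20 members above the filter and lay at percentile 8.13, so 1.2-fold was just missed. Under the 3 other scalings it was between -0.20 and -0.22. ABCB6, linked to porphyrin transport, had 8.95 with SiO2-NP and 8.97 in the control. ABCB8 was read by 3 probes that differed from each other in level, with 8.13, 6.85 and 6.19 with SiO2-NP and 7.96, 6.66 and 6.16 in the control. Their differences of 0.17, 0.19 and 0.03 had the same sign, and the mean lay under the filter while the brightest probe lay above it. Of 10 partner genes of mitochondrial iron-sulfur and haem synthesis above the filter 0 passed 1.2-fold. Of all genes above the filter 2.99% passed it upward and 7.53% downward. ISCU, the scaffold of iron-sulfur cluster assembly, differed by -0.25, the iron importer SLC25A37, which ABCB10 stabilises in mouse erythroid cells, by -0.17, and ALAS1, the first enzyme of haem synthesis, by 0.15.

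ABCD3, the peroxisomal importer of branched-chain acyl-CoA and bile acid intermediates, had 10.78 with SiO2-NP and 10.98 in the control, a difference of -0.21 at percentile 12.7. ABCD2, a peroxisomal importer of very long fatty acids, was dim at 4.40 with SiO2-NP and 4.15 in the control, a difference of 0.26. ABCD3 and ABCD2 thus lay on opposite sides, also under the 3 other scalings. The value of ABCD2 fell just short of 1.2-fold as deposited, and ran from 0.19 to 0.29 over those scalings, past 1.2-fold after centring on the median. Of 7 peroxisome partners 0 passed 1.2-fold, against 2.99% upward and 7.53% downward of all genes above the filter. PEX19 and PEX3, which place such membrane proteins in peroxisomes, each differed by -0.20, and the elongase ELOVL1 by 0.17. ABCD4, which releases vitamin B12 from lysosomes, had 7.64 with SiO2-NP and 7.74 in the control, a difference of -0.10. LMBRD1, the protein that brings ABCD4 to the lysosome, had 8.87 with SiO2-NP and 9.10 in the control, a difference of -0.23, and of the other cobalamin genes MMACHC differed by -0.10 and MMUT by -0.06. None of these 5 cobalamin genes passed 1.2-fold. ABCB9, a lysosomal peptide transporter, was dim with 6.87 with SiO2-NP and 6.77 in the control.

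The proteins without a membrane part comprised 4 genes, all above the filter. ABCE1, which splits ribosomes after termination, had 9.98 with SiO2-NP and 10.20 in the control, a difference of -0.23 (1.17-fold lower) at percentile 10.3. ABCF3 lay on the other side, with 8.46 with SiO2-NP and 8.34 in the control, a difference of 0.12. ABCF2 had 8.47 in both arrays. ABCF1, which binds initiation factor eIF2, had 9.82 with SiO2-NP and 9.85 in the control, and its 3 probes held identical values, so they count as 1 measurement. Of the 9 partner genes of ribosome recycling and initiation above the filter 0 passed 1.2-fold. The shares of all genes above the filter were 2.99% upward and 7.53% downward. EIF2S2, a subunit of eIF2, differed by -0.23, EIF2S3 by 0.09 and EIF2S1, another of its subunits, by -0.05.

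**Figure D4:**
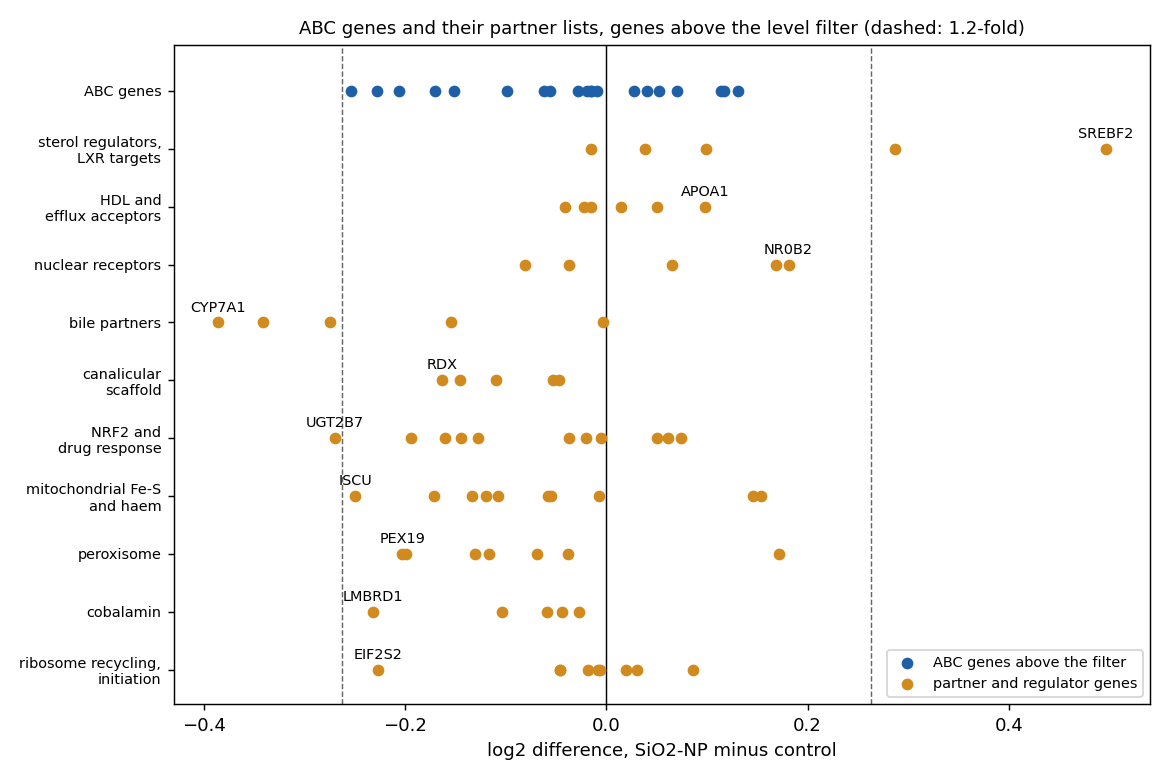
Log2 difference, SiO2-NP minus control, of the 20 ABC genes above the level filter (blue) and of partner and regulator genes above it (orange, 1 row per list), with 1.2-fold dashed and the gene with the largest difference of each list named. SREBF2 and SREBF1 lie past 1.2-fold on the right, and CYP7A1, SLC51B, ATP8B1 and UGT2B7 on the left in the values as deposited (ATP8B1 and UGT2B7 fall short under the other scalings), while the ABC genes stay within the dashed lines.

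The remaining members were dim. ABCC8 and ABCC9, the sulfonylurea receptors of potassium channels, had 6.35 and 4.11 with SiO2-NP and 6.24 and 4.13 in the control. Their channel partners KCNJ8 and KCNJ11 were dim as well. ABCB5 had 3.69 with SiO2-NP and 3.62 in the control, and the pseudogene ABCC13 had 3.92 with SiO2-NP and 3.85 in the control. By subfamily, the members above the filter had median differences of -0.02 in A (3 genes), -0.04 in B (4), 0.04 in C (5), -0.15 in D (2), -0.23 in E (1), -0.01 in F (3) and -0.04 in G (2). The signs of C, D and E held under the 3 other scalings, while the median of G, from a gene on either side of the control, came to -0.01 under both centrings and to 0 within rounding under quantile normalization. The median of A turned positive after centring on the median, that of B once a running median was subtracted or quantiles were equalised, and that of F under all 3.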

How the data were processed

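Gene expression was measured in 2 samples, HepG2 cells with and without SiO2-NP, on 1 Affymetrix array each. The deposited table holds 1 log2 intensity per probe set and array, a scale inferred from its range of 2.08 to 14.4. Per the submitters' processing notes the tools included RMA and MAS5. The one behind these values is not given in the sources used here, and RMA would hide a change shared by most transcripts. Probes were named through the platform annotation: 19460 had 1 gene symbol and were averaged per gene, and 1754 with several symbols were left out. The number of arrays limits the precision. No test was run and no p-value or SE is given; counts past 1.2-fold and 1.5-fold are set beside those of all genes. All members above the level filter are named, as is every member past 1.2-fold, and of each partner list the genes above the filter with the largest differences, at most 3, and any past 1.5-fold. NR1H3, NR1I3, VDR, SCAP, PLTP, SLC51A, SLCO1B3, NQO1, CYP2B6, CYP3A4, KCNJ8, KCNJ11, CFTR and MIR33A were named after their values were seen. The members, lists and thresholds were chosen with earlier results of these data known. Alternatives were other level filters, other scalings (the median, a running median over 501 genes, quantile normalization) and other probe rules. Only the fold count, the running median and the quantile step were checked, on values altered by set differences, a set trend or a set shift. This checks the code and not the results, and recovery of the set differences was certain. The software was Python 3.11.15 with pandas 2.3.3, NumPy 2.4.6 and, for plots, matplotlib 3.10.9.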

Additional observations from a re-analysis of the deposited data

How the results depend on the processing

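The median difference of the members was -0.02 and lay between -0.05 and 0.03 over the other settings, so its sign is not fixed. Without the level filter 1 member passed 1.2-fold upward and 1 downward, against 0 and 0 with it, because 23 dim members were added. The other 26 of 28 recomputed counts stayed at 0 over 7 alternatives. Of 102 recomputed medians of subfamilies and role lists, 94 moved by less than 0.1 on the log2 scale and 8 by more, all of them under another level filter or with the brightest probe per gene, where the genes counted change. Of 215 recomputed differences of single members none moved by 0.1, the largest move being that of ABCG1 under centring on a running median (-0.09). Without the pseudogene ABCC13 and without the filter, a setting chosen after seeing the data, the median was 0.0093. Adding probes with several symbols moved no member. No paired analysis was possible because there was a single array per group, which also left no replicate to omit.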

Other observations

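Genes of the ABC superfamily that the symbol rule does not take were also close to the control. TAP1 and TAP2, which carry peptides into the endoplasmic reticulum for antigen presentation, had 9.31 and 8.09 with SiO2-NP and 9.32 and 8.16 in the control. CFTR was dim, at 4.28 with SiO2-NP and 4.16 in the control, a difference of 0.12. The pseudogene probe ABCA15P was dim, at 6.68 with SiO2-NP and 6.46 in the control, a difference of 0.22. ABCA11P had 5.81 with SiO2-NP and 5.95 in the control, a difference of -0.14.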
